A study of Cricetiscus sungorus with 216 samples.

Results

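The dorsomedial hypothalamus (DMH) of male Djungarian hamsters was compared between late and mid short photoperiod (SP). The late group held the 12 DMH libraries of hamsters killed after 28 and 32 weeks of SP, and the mid group held the 18 libraries of hamsters killed after 12, 16 and 20 weeks. These 30 libraries, from 6 hamsters at each of the 5 time points, were taken by their labels out of 54 DMH libraries, in a series of 4 tissues with 54 libraries each. The labels write SD (short days) for SP. All hamsters were adults of one colony that had been moved from long photoperiod (LP) to SP with food and water freely available. No drug, transgene or surgery is given for these hamsters. The age of each hamster is not in the labels. Each library came from bilateral tissue punches of one hamster and was made with a PCR-cDNA kit for nanopore sequencing, which reads a cDNA molecule in a single pass.

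The DMH is a hypothalamic nucleus that takes part in feeding, body temperature, daily rhythms and the response to stress. Djungarian hamsters use the long winter night as a signal for a programme of white fur, lower body mass and daily torpor, a short regulated drop in metabolic rate and body temperature. Under constant SP this programme ends by itself, which makes it a circannual interval timer. The study divided the timer into induction, maintenance and recovery, and the mid and late weeks lie on either side of the turn towards recovery. The comparison asks which transcripts of the DMH differ between these phases.

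No transcript passed the test. Of 5334 genes read in at least 15 of the 30 libraries, edgeR called 0 at a false discovery rate (FDR) below 0.1, which is 0% in either direction. Every adjusted p was at least 0.999. At an unadjusted p below 0.05 there were 70 genes, which is 1.31% of those tested. Evenly spread p-values, with no gene differing, would put a share of 0.05 below this threshold. The p-values thus ran larger than that, and the reason was not tested. Of the 70 genes, 25 were higher late (0.469% of genes tested) and 45 were lower late (0.844%). DESeq2 called 0 with 30 genes at an unadjusted p below 0.05, the newer quasi-likelihood form of edgeR called 0 with 70, and limma voom with sample quality weights called 0 with 215. In 0 genes did the values of the late libraries lie wholly apart from those of the mid libraries. The lowest number of genes with a count was 787 in a late library and 1073 in a mid one. Most genes tested were thus at 0 in libraries of both groups and could not lie wholly apart.

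The spread between libraries was wide. The median standard error (SE) of a log2 difference was 0.475, with quartiles of 0.395 and 0.586, and the common biological coefficient of variation was 0.739. The 95% confidence interval of the difference lay within 1 log2 unit of 0 on both sides for 1448 genes (27.1%) and within 2 log2 units for 4742 genes (88.9%). For most genes the interval thus included differences of more than 1 log2 unit, and a missed threshold does not show that the phases have equal levels. The median log2 difference, late minus mid, over all genes tested was -0.08.

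Sequencing depth was uneven, and several libraries stood apart. Total counts were 149289 to 5736662 in late libraries (median 1076064) and 180668 to 9084072 in mid libraries (median 1797870). On average 41.7% of counts lay in Gm32262, which was left out of the totals used for scaling, and 16 genes with a mean of over 0.2% of counts each held between 33.2% and 99.3% of a library. The counts outside those 16 genes had medians of 214397 and 145382.5 at weeks 12 and 16 of SP. At week 20 the median was 42805.5, and in the late weeks 28 and 32 it was 56938.5 and 41052.5. The 20-week libraries were thus as shallow as the late ones, and a value of 0 in these weeks often rests on few counts. The part of depth in each difference was not tested. The shallowest library, 32 weeks replicate 3, held 2390 counts outside the 16 genes and 787 genes with a count. With every library thinned to 149289 counts, 0 genes were called. The thinning was on total counts, including those in the 16 genes, so the counts outside them stayed uneven.

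**Figure D1:**
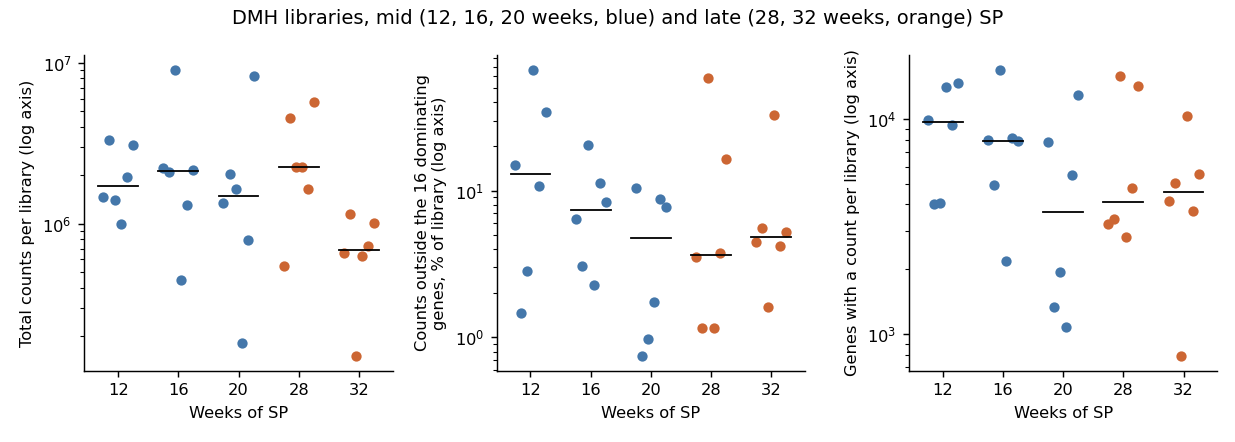
Each point is 1 DMH library, placed by weeks of SP (x axis), with mid weeks in blue, late weeks in orange and a line at the median of the 6 libraries. The panels show, on log axes, total counts, the percent of counts outside the 16 dominating genes and the number of genes with a count, from 787 to 16931, and in each panel the weeks overlap.

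The 28-week library of replicate 2 held skeletal muscle transcripts. The 11 of 12 listed muscle markers in the table summed to 5788 CPM (counts scaled to a common library total) there and to at most 21.96 CPM in each of the 29 other libraries, and they were at 0 in 6 late and 7 mid libraries. In that library the giant sarcomere proteins were read most. Neb (nebulin) had 98.3% of its counts there, Ttn (titin) 97.98% and Tnnt3 (fast troponin T) 96.6%. Results that rest on it are given below with and without it.

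The label of the tissue was checked against 7 transcripts known from DMH neurons. All 7 were in the table, but Cck was the only one read widely enough to be tested. Npvf, which encodes the RFamide-related peptides, was read in 4 late and 1 mid library with 13 and 2 counts in sum. Grp (gastrin-releasing peptide) was read in 3 late and 6 mid libraries, and Ppp1r17, a DMH neuron marker, in 1 and 6. Npy and Trh, the genes of neuropeptide Y and thyrotropin-releasing hormone, were each read in 3 late and 5 mid libraries. Lepr, the leptin receptor, was read in 2 late libraries and 0 mid ones, with 3 counts in all. The defining DMH transcripts other than Cck were thus at or near 0, and the label could not be checked with them. The summed level of the 7 markers was 0 to 39.8 CPM late (median 13.7) and 0 to 142 CPM mid (median 15.1). It was 0 in 3 late libraries and 1 mid library. Outside these 7, Mc4r, a melanocortin receptor that curbs feeding, was read in 1 late library and 0 mid ones.

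Cck encodes cholecystokinin, a peptide of DMH neurons and of the gut that curbs feeding. Its level was 0 to 39.8 CPM late with a median of 12.1, and 0 to 142 CPM mid with a median of 13.98. The groups overlapped, and the highest libraries were mid ones. The log2 difference was -1.10 (SE 0.641, 95% interval -2.40 to 0.20). By week the medians, on the scale of all 54 libraries, were 16.98, 19.3 and 16.0 CPM in the mid weeks, 20.3 CPM at week 28 and 3.403 CPM at week 32. The 28-week libraries thus lay with the mid ones and the 32-week ones lower. In 18 of the 25 libraries where Cck was read, its 3 isoform rows had equal values, so a read may have been counted more than once.

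The 3 transcripts linked with cold and torpor that were tested had differences of either sign. Rbm3 and Cirbp encode RNA-binding proteins that are induced by mild cooling in many mammalian cells. Rbm3 was at 0 to 19.9 CPM late with a median of 7.96, and at 0 to 38.9 CPM mid with a median of 14.9. The late libraries filled the lower part of the mid range. Late minus mid, the log2 difference was -0.86 (SE 0.441, interval -1.76 to 0.03), and it was -0.75 without the muscle library, -0.36 with library totals in place of TMM factors and -1.37 without the 28-week libraries. Cirbp was at 0 to 56.8 CPM late with a median of 31.7, and at 0 to 37.3 CPM mid with a median of 17.8. The late libraries reached higher, but 4 of the mid zeros fell in the shallow 20-week libraries. Its log2 difference was 0.54 (SE 0.489, interval -0.45 to 1.54), and 0.20 with library totals.

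The 12 transcripts with the smallest p among those higher late fell into those that rested on the muscle library and those that did not. Tpm1 encodes tropomyosin, a partner of actin that is abundant in muscle and also made in other cells. It was at 0 to 548 CPM late with a median of 0.949, and at 0 to 21.5 CPM mid with a median of 2.82. One library, 28 weeks replicate 2, was at 548 CPM, the next highest late library was at 44.8 CPM, and the late median was below the mid median. On the log2 scale the difference was 3.20 (SE 0.838, interval 1.503 to 4.91) with that library and 0.31 without it. Scaling by library totals in place of TMM factors, which put that library at 0.108, gave 0.47.

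Lars2, the mitochondrial leucyl-tRNA synthetase, was at 40.2 to 8006 CPM late with a median of 148, and at 38 to 407 CPM mid with a median of 160. Apart from the library at 8006 CPM the late libraries reached 221 CPM and lay inside the mid range. This gave a log2 difference of 2.19 (SE 0.617) with that library, -0.39 without it and 0.04 without TMM factors. Its 3 isoform rows were equal in 24 of 30 libraries. Gm46178 and LOC118568312, which have predicted gene names, had their highest values in the same library, 3631 and 88270 CPM. Their log2 differences were 1.96 and 1.51 with it, -0.42 and -0.35 without it, and -0.08 and -0.18 without TMM factors. Mark3, a kinase that acts on microtubule-associated proteins, had a log2 difference of 2.88, and without that library, in which it was at 741 CPM, it was read in too few libraries to be tested. Without TMM factors its difference was -0.03.

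The other 7 transcripts kept their direction without the muscle library. Pgls encodes 6-phosphogluconolactonase of the pentose phosphate pathway. It was at 0 to 16.9 CPM late with a median of 1.57, and at 0 to 2.29 CPM mid with a median of 0. It was read in 7 of 12 late and 8 of 18 mid libraries with at most 26 counts, and in 0 of the 20-week libraries. The log2 difference was 1.62 (SE 0.491, interval 0.63 to 2.62) and 1.66 without the muscle library. In the same hamsters the log2 difference of Pgls in the adjoining mediobasal hypothalamus (MBH) was 0.68 (SE 0.266).

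Cmss1 was at 0 to 40.7 CPM late with a median of 7.92, and at 0 to 7.70 CPM mid with a median of 0.305. Counts were found in 8 late and 9 mid libraries, and all 5 isoform rows were equal in 13 of these 17. Late minus mid, the log2 difference was 1.63 (SE 0.577, interval 0.46 to 2.80) and 0.96 when the highest isoform in each library was used in place of the sum. Btbd3, which acts in the orientation of dendrites, was at 0 to 54.2 CPM late with a median of 5.50, and at 0 to 11.4 CPM mid with a median of 1.49. On the log2 scale the difference was 1.78 (SE 0.615) and 0.95 with the highest isoform. Both groups held libraries at 0 for each of these transcripts.

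Ptprz1, a receptor phosphatase of glia and their precursors, was at 0 to 69.6 CPM late with a median of 22.7, and at 0 to 24.3 CPM mid with a median of 6.74. Reads were present in 11 late and 13 mid libraries, and the highest 2 libraries were of 28 weeks. This gave a log2 difference of 1.26 (SE 0.49, interval 0.26 to 2.26), and 0.32 with the highest isoform. Nudt11 was read in 10 late and 12 mid libraries with a log2 difference of 1.13 (SE 0.434), and 0.80 with the highest isoform. Yjefn3 and Gnpda1 had log2 differences of 0.86 (SE 0.329) and 0.97 (SE 0.406), with late medians of 2.03 and 0.949 CPM. For each of the 12 the groups overlapped.

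**Figure D2:**
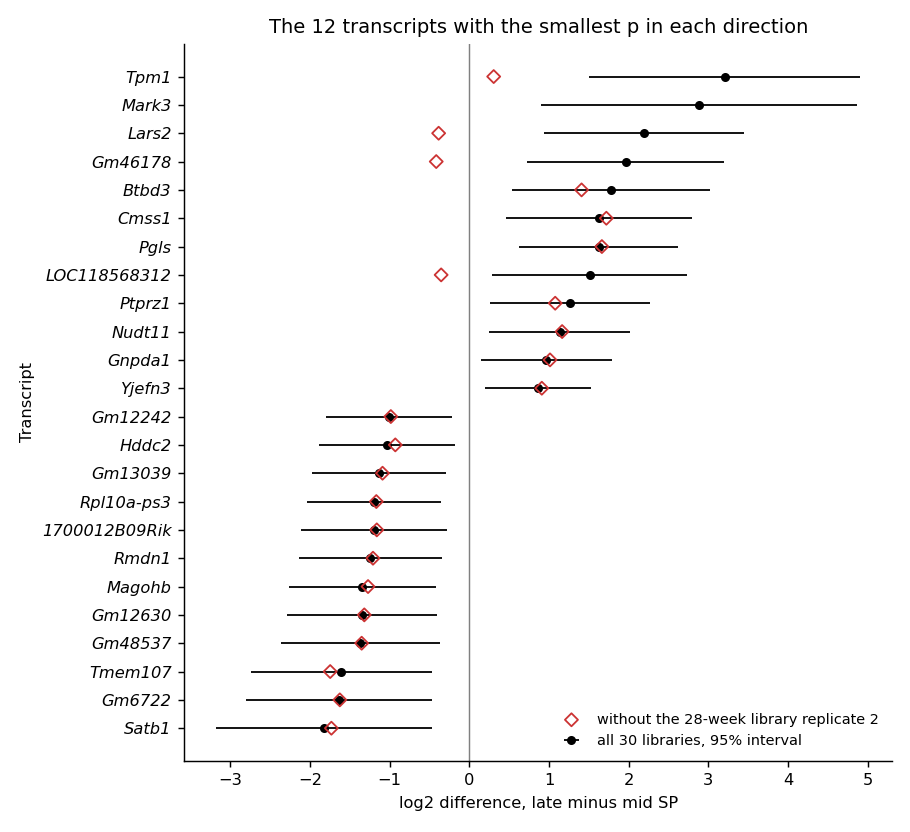
The 12 transcripts with the smallest p among those higher late and the 12 among those lower late are listed on the y axis, with the log2 difference, late minus mid, on the x axis. Black points and bars give the estimate and 95% confidence interval from 30 libraries, and red diamonds the estimate without the 28-week library of replicate 2, which moves Tpm1, Lars2, Gm46178 and LOC118568312 to near or below 0. Mark3 has no diamond because it could not be tested without that library.

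The 12 transcripts with the smallest p among those lower late were mostly read in few late libraries. Satb1 encodes a chromatin organiser of neurons and T cells. It was at 0 to 15.6 CPM late with a median of 0, and at 0 to 44.6 CPM mid with a median of 12.2. It was read in 4 of 12 late and 13 of 18 mid libraries. On the scale of all 54 libraries its median was 19.1 CPM in week 12 and 20.5 CPM in week 16, and 0 in weeks 20, 28 and 32. The 20-week libraries, which are in the mid group, thus lay with the late ones. The log2 difference was -1.82 (SE 0.666, interval -3.17 to -0.47), -2.20 without the 20-week libraries and -1.37 without the 12-week ones. In the MBH of the same hamsters Satb1 had a median of 61.9 CPM late and 49.3 CPM mid. The log2 difference there was 0.34 (SE 0.435). In a joint fit of both tissues the DMH difference minus the MBH difference was -2.87 (SE 0.920, edgeR adjusted p = 1.00). The median of this value over all genes of that fit was -0.25.

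Magohb, a subunit of the exon junction complex that marks spliced mRNA, was at 0 to 5.82 CPM late with a median of 0.69, and at 0 to 13.6 CPM mid with a median of 5.26. Counts were found in 6 late and 13 mid libraries. Late minus mid, the log2 difference was -1.34 (SE 0.455, interval -2.27 to -0.42). Tmem107 encodes a protein of the transition zone of cilia, and was read in 5 late and 12 mid libraries. On the log2 scale the difference was -1.61 (SE 0.561). Rmdn1, which binds microtubules, was read in 5 late and 11 mid libraries with a log2 difference of -1.24 (SE 0.443). Hddc2 was read in 10 late and 16 mid libraries at medians of 6.397 and 10.5 CPM, with a log2 difference of -1.04 (SE 0.418). Each of these was at 0 in libraries of both groups.

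The other 7 transcripts of this direction were Gm12630, Rpl10a-ps3, Gm6722, Gm48537, Gm13039, Gm12242 and 1700012B09Rik, predicted genes, a ribosomal protein pseudogene and an uncharacterised clone. Their log2 differences ran from -1.63 in Gm6722 to -1.01 in Gm12242. Gm12242 was read in 10 late and 15 mid libraries, and the others in 3 to 5 late and 11 to 14 mid libraries. Gm6722 had 5 counts late and 37 mid in sum. Reads of predicted genes and pseudogenes can be shared with their parent genes, so these values are uncertain. In all 12 the late range lay inside the mid range.

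**Figure D3:**
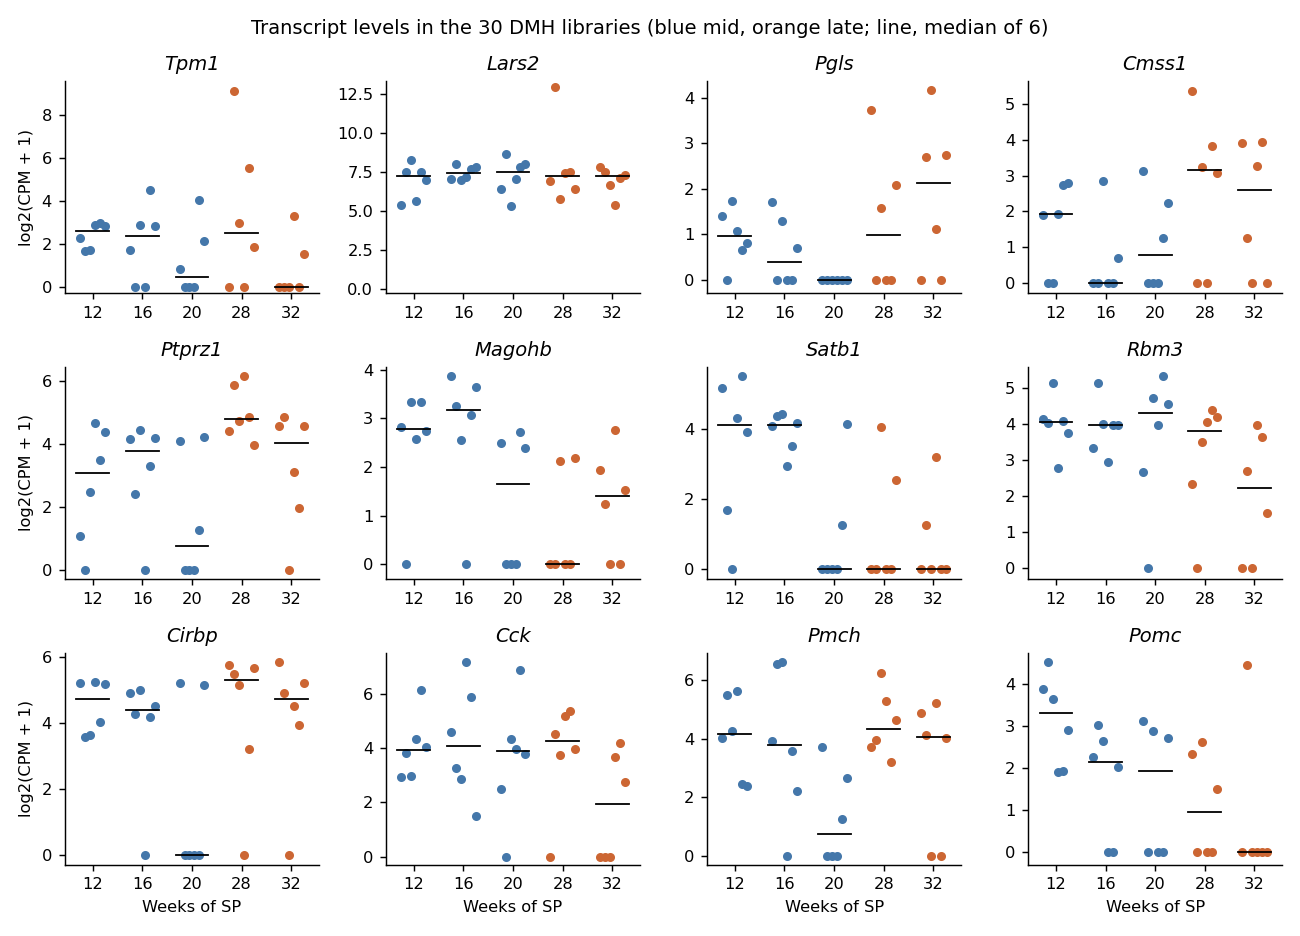
Each point is the level of a transcript in 1 DMH library as log2(CPM + 1), by weeks of SP (x axis), with mid weeks in blue, late weeks in orange and a line at the median of 6 libraries. The points of Tpm1 and Lars2 show 1 late library far above the rest, Satb1, Cirbp and Pmch show zeros in the 20-week libraries, and for all 12 transcripts the mid and late points overlap.

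The 42 gene lists held 367 tested members, of which 0 were called. An unadjusted p below 0.05 was found for 1 of the 367 (0.272%), against 1.31% of all genes tested. Of all genes tested 59.9% had a negative difference, and of the list members 62.9%. Of the 35 lists with a median, 28 changed its sign in 1 or more of the alternatives and 7 kept it in all those run. The 1 member with an unadjusted p below 0.05 was Psmb10, an immunoproteasome subunit. It was at 0 to 15.5 CPM late with a median of 1.78 and at 0 to 20.3 CPM mid with a median of 5.35. This gave a log2 difference of -0.99 (SE 0.479, interval -1.96 to -0.02). No member was read widely enough to be tested for the lists of feeding and metabolic receptors, immediate early genes, cilia, choroid plexus, skeletal muscle, the tuberomammillary nucleus, and the paraventricular and supraoptic nuclei. Fewer cells of a type and less RNA per cell cannot be told apart in such tissue.

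Feeding peptides had 6 of 19 members tested, 3 with a positive and 3 with a negative difference. Pomc, the precursor of melanocortins that curb feeding, was at 0 to 20.7 CPM late with a median of 0, and at 0 to 21.96 CPM mid with a median of 4.49. Reads were present in 4 of 12 late and 13 of 18 mid libraries, with a log2 difference of -0.81 (SE 0.646, interval -2.13 to 0.50). Cartpt, the precursor of CART peptides, had 0.10 (SE 0.548). Pmch, the gene of melanin-concentrating hormone of the lateral hypothalamus, was at 0 to 75.3 CPM late with a median of 15.9, and at 0 to 97.3 CPM mid with a median of 8.26. Its log2 difference was 0.10 (SE 0.595). Sst encodes somatostatin, which restrains growth hormone. It was at 0 to 7.59 CPM late with a median of 0, and at 0 to 7.91 CPM mid with a median of 3.31. It was read in 5 late and 11 mid libraries, and its log2 difference was -0.15 (SE 0.510, interval -1.19 to 0.88). Vgf, a granin-like precursor, was read in 3 late and 9 mid libraries and was not tested. The levels of all of these overlapped between the groups.

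Prohormone handling, the work of secretory granules, had 9 of 11 members tested with a median log2 difference of 0.14. This median kept its sign in 13 of 14 alternatives and was -0.04 without the 20-week libraries. Chga (chromogranin A) had 0.48 (SE 0.422) and Pcsk2, a convertase that cuts prohormones, had 0.41 (SE 0.381). Of thyroid hormone handling and response, 3 of 13 members in the table were tested, all with a positive difference. Klf9, a gene that thyroid hormone induces, had 0.56 (SE 0.437, interval -0.33 to 1.45) and Ncoa1, a nuclear receptor coactivator, had 0.62 (SE 0.663). For Ncoa1 the medians lay the other way, at 1.43 CPM late and 6.46 CPM mid, and it was read in 6 of 12 late and 14 of 18 mid libraries. Dio2, the deiodinase that makes the active hormone, was read in 2 late and 3 mid libraries with at most 1 count each. Dio3, which inactivates it, was not analysed here. Retinoic acid handling had 3 members tested, all negative, with Aldh1a1, which makes retinoic acid, at -0.80 (SE 0.605) and Rbp4, a retinol carrier, at -0.72 (SE 0.843). Nr3c1, the glucocorticoid receptor, had 0.89 (SE 0.831) with a late high of 174.3 CPM, and -0.75 without the muscle library. Of the 6 circadian clock members tested, Hlf had -0.71 (SE 0.740) and Bhlhe40 0.28 (SE 0.362).

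Markers of neurons and glia had median log2 differences from -0.16 to 0.18. Of the 10 neuron markers tested 8 had a positive and 2 a negative difference, with a median of 0.18. This median kept its sign in 13 of 14 alternatives and was -0.02 without the 20-week libraries. Tubb3, a neuronal tubulin, had 0.60 (SE 0.478) and Gad2, which makes GABA, 0.54 (SE 0.483). Of the 10 markers of oligodendrocytes and myelin tested 9 were negative and 1 positive, with a median of -0.16. It kept its sign in 13 of 14 alternatives, was 0.09 without the 12-week libraries and -0.02 with DESeq2 size factors. Mag had -0.63 (SE 0.697) and Ermn -0.55 (SE 0.495). The 9 astrocyte markers had a median of -0.01 and the 5 microglia markers -0.09. The 4 haemoglobin genes tested had log2 differences between -0.37 and -0.31, and their paralogs can share reads. GABA and glutamate receptors had 10 of 32 members tested and a median of 0.33, with 7 positive and 3 negative. Without the 28-week libraries the median of the members then tested was -0.78. Gabra4, a subunit of the GABA-A receptor, had -0.78 (SE 0.593). The median over all genes tested was -0.08, and no list was tested against it. With DESeq2 size factors, which raised the median of all genes to 0.03, the astrocyte and microglia medians were 0.13 and 0.09 and that of the ubiquitin and proteasome members was 0.05, so the signs of these lists depended on the scaling.

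Markers of neighbouring regions and of further cell types were examined in the same way. Of thalamus markers 4 of 6 were tested, among them Calb2 (calretinin) with a log2 difference of 0.45 (SE 0.539) and Slc17a6, the vesicular glutamate transporter of hypothalamus and thalamus, with -0.37 (SE 0.602). Adcyap1, the gene of the peptide PACAP in the ventromedial nucleus, was at 0 to 83.5 CPM late and 0 to 42.5 CPM mid, with a difference of -0.09 (SE 0.747) that was -0.92 without TMM factors. Among the tanycyte and ependyma markers only Vim (vimentin) was tested, at -0.55 (SE 0.420, interval -1.40 to 0.30). Ptgds, which makes prostaglandin D2 in meninges and glia, was read in 11 late and 16 mid libraries, at 0 to 391 CPM late with a median of 89.6 and 0 to 272 CPM mid with a median of 103. Its difference was 0.18 (SE 0.597). Cldn5 of the endothelium had -0.07 (SE 0.425), Bcas1 of oligodendrocyte precursors -0.06 (SE 0.658, but 0.33 with DESeq2 size factors and 0.48 with library totals), and the microglial genes Aif1 and C1qa -0.73 (SE 0.507) and 0.43 (SE 0.407). The intervals of all of these included 0.

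Transcripts of synapses and of cell upkeep gave differences of both signs. Synaptic vesicle release had 17 of 21 members tested, 11 positive and 6 negative, with a median log2 difference of 0.07. This median kept its sign in 12 of 14 alternatives and was lowest, at -0.08, without the 20-week libraries. Snap25, a protein of vesicle fusion, was at 0 to 190 CPM late with a median of 55.5 and 0 to 142 CPM mid with a median of 53.9, and had 0.51 (SE 0.481). Potassium channels had 7 of 87 members tested, with Kcnip4, a protein that binds such channels, at -0.73 (SE 0.497). Dpysl2, which promotes axon growth, was read in 12 late and 17 mid libraries and had 0.53 (SE 0.297, interval -0.07 to 1.13), in a cytoskeleton list with 11 positive and 8 negative members. Cholesterol synthesis and uptake had 10 members tested and a median of -0.15, with the synthesis enzymes Msmo1 at 0.81 (SE 0.449) and Idi1 at -0.68 (SE 0.410). Heat shock chaperones had a median of 0.03 over 10 members, and Hsp90aa1, read in all 30 libraries, had 0.29 (SE 0.298). The 41 ubiquitin and proteasome members had a median of -0.04, 26 of them negative. Dnmt3a, a DNA methyltransferase, was the only one of its list tested, at 0.69 (SE 0.65). Its late median was 0 and its mid median 10.6 CPM, with 5 of 12 late and 14 of 18 mid libraries read, and the highest values were 81.3 CPM late and 17.1 CPM mid. Without the 28-week libraries the members of this list that were tested changed, and their median was -0.15, which is not the value of Dnmt3a itself.

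The lists of ribosomal proteins, oxidative phosphorylation and glycolysis had the highest median summed levels of the 42, which in the late group were 8882, 2968 and 831 CPM. Cytosolic ribosomal proteins had 84 of 88 members tested, 69 with a negative and 15 with a positive difference, where 59.9% of all genes were negative. Their median was -0.11, against -0.08 for all genes. Rpl7, a protein of the large ribosomal subunit, was at 7.74 to 42.9 CPM late with a median of 18.2, and at 0 to 38.98 CPM mid with a median of 26.4. The groups overlapped, and the log2 difference was -0.37 (SE 0.274, interval -0.93 to 0.18). Nuclear genes of oxidative phosphorylation had 77 of 94 members tested, 58 negative and 19 positive, with a median of -0.16. Atp5g1, a subunit of the ATP synthase, had -0.48 (SE 0.268) and Cox4i1, of cytochrome c oxidase, -0.31 (SE 0.2003). Glycolysis had 15 of 16 members tested and a median of 0.04, with Pfkp at -0.74 (SE 0.652) and Aldoa at 0.36 (SE 0.501). With DESeq2 size factors the median of all genes moved by 0.11 to 0.03, that of the ribosomal proteins to 0.01 and that of oxidative phosphorylation to -0.07. The sign of the ribosomal list thus depended on the scaling, and read against all genes it was lower by about the same small amount.

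**Figure D4:**
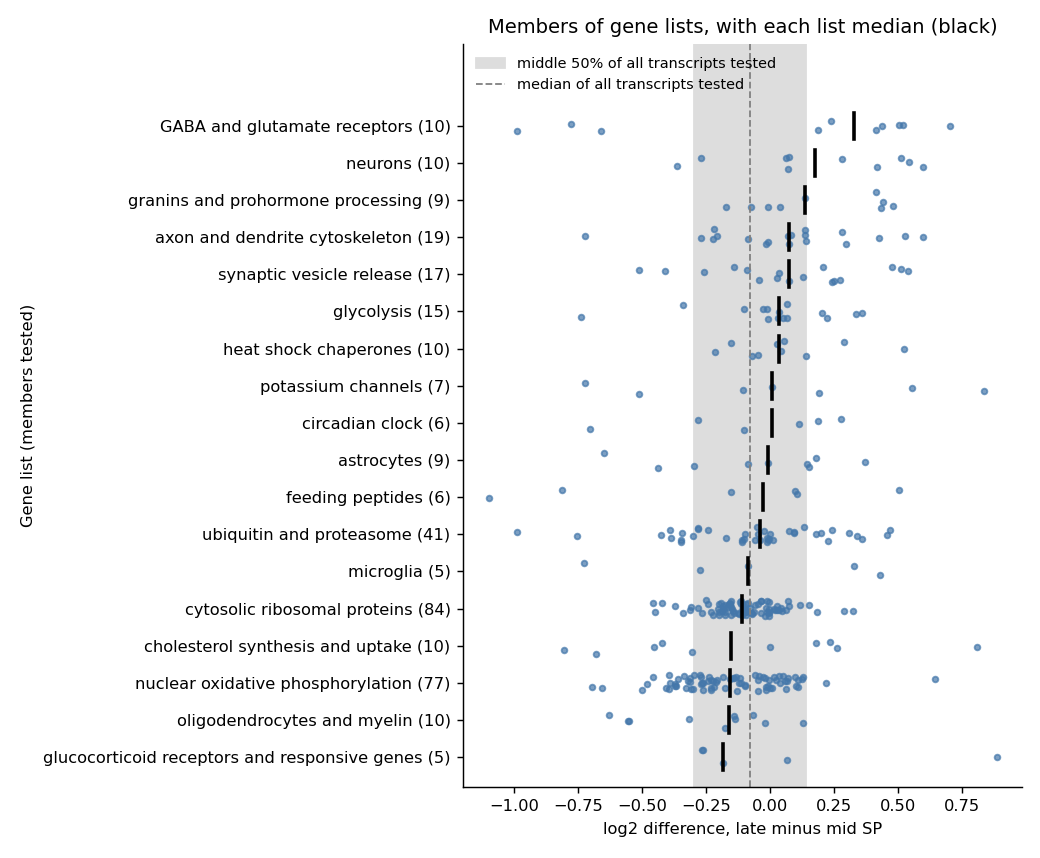
Each blue point is the log2 difference, late minus mid (x axis), of 1 member of a gene list (y axis, with the number of members tested) and the black bar is the list median, for lists with 5 or more members tested. The grey band holds the middle 50% of all 5334 transcripts and the dashed line their median of -0.08. The list medians lie between -0.19 and 0.33.

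Summed marker levels and depth were compared as single values by permutation. Of 23 values tested with 100000 permutations, 0 had a p below 0.05. The smallest permutation p was 0.0505, for the summed markers of pars tuberalis and pituitary (2-sided, adjusted permutation p = 0.866 over the 23 values). Their mean was 1.60 ± 1.57 late (SD, n = 12) and 2.73 ± 1.42 mid (SD, n = 18) on the log2(CPM + 1) scale. This sum held 5 of the 8 listed markers, with Pomc and Tshb, the thyrotropin beta subunit, among them. Tshb was read in 0 of 12 late and 7 of 18 mid libraries. The highest values of the sum were 22.1 CPM late and 21.96 CPM mid, close to 20.7 and 21.96 CPM for Pomc alone. The part of each marker in the difference was not tested. For the DMH markers the difference of means was -0.92 and for skeletal muscle markers 0.64.

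Each phase was also examined within itself, by edgeR with the same filter over its own libraries. Between 32 and 28 weeks, 0 of 4523 genes were called (0%) and 100 had an unadjusted p below 0.05, while the newer edgeR form called 0 with 118. The 5 genes with the smallest p were 3830406C13Rik, Rasal2, Pccb, Clpp and Kcnc2, with adjusted p from 0.753 to 0.999. Their log2 differences, 32 minus 28 weeks, ran from -5.77 to -3.01. Rasal2, a regulator of Ras, was read in 5 of 6 libraries at 28 weeks with a median of 7.24 CPM, and in 1 of 6 at 32 weeks. Pccb and Clpp, mitochondrial enzymes, were likewise read in 5 libraries at 28 weeks and 1 at 32 weeks. Among 12, 16 and 20 weeks, 0 of 6650 genes were called (0%) and 2.59% had an unadjusted p below 0.05. The smallest were Gm11500, Plppr5, Pias3, Ccdc106 and Mfap3l, all with an adjusted p of 1.00. Ccdc106 was read in 6 libraries at 12 weeks with a median of 9.15 CPM, in 1 at 16 weeks and in 2 at 20 weeks.

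The late against mid difference in the DMH was set against that in the MBH of the same 30 hamsters. Of 9407 genes read in at least 50% of the 60 libraries, 0 differed between the tissues at an FDR below 0.1 (0%), with 2.82% at an unadjusted p below 0.05. The median DMH minus MBH value over all these genes was -0.25, and 0.01 with DESeq2 size factors. These values came from a joint fit of both tissues, so they need not equal the DMH estimate minus the MBH estimate of the separate fits. In the MBH alone 2 of 12064 genes were called (0.0166%). The smallest p of the difference were those of Ythdf3, Fam76a, Net1, Bcl11b and Gm15446. None of these was read widely enough in the DMH to be tested there alone, so each entered the joint fit partly through its MBH reads. Ythdf3, which binds methylated adenosine in mRNA, had a DMH difference minus MBH difference of -3.59 (SE 1.02), and an MBH difference of 0.12 (SE 0.262). Its medians were 0 CPM late and 9.86 CPM mid in the DMH, and 84.03 and 70.98 CPM in the MBH. Bcl11b, a transcription factor of neurons, had -5.44 (SE 1.59). In the DMH it was read in 1 late and 6 mid libraries, with a median of 0 CPM in both groups. Its MBH medians were 10.71 CPM late and 11.2 CPM mid. For Rbm3 the DMH minus MBH value was -1.10 (SE 0.755) and the MBH difference was 0.03 (SE 0.160). For Cirbp these were 0.50 (SE 0.670) and -0.02 (SE 0.153). The smaller SE in the MBH went with higher levels there, a late median of 111 CPM for Rbm3 against 7.96 CPM in the DMH.

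Without the filter on low values 139 of 20128 genes passed an FDR of 0.1 (0.691%), 120 higher and 19 lower late. The 120 were read in a median of 3 libraries, and their median highest count was 12. The library with the largest share of a gene's counts was 28 weeks replicate 3 for 77 of them, replicate 6 of that week for 29 and the muscle library for 9, and this share was over 50% for 62, 24 and 7 of these. Replicates 3 and 6 of 28 weeks were the deepest late libraries, with 1315227 and 944124 counts outside the 16 dominating genes, and the part of depth in these calls was not tested. Neb, Ttn and Tnnt3 were among them, with log2 differences of 9.62, 8.07 and 7.83. Npvf was among them too, with 4 of 12 late and 1 of 18 mid libraries and 13 counts against 2. The largest share of counts of each of the 19 lower ones lay in a deep mid library. These were 16 weeks replicate 3, 20 weeks replicate 6 and 12 weeks replicates 4 and 6. They held 1865236, 637120, 662945 and 1051518 counts outside the 16 genes, in that order, and the part of depth here was not tested. Of the 19 lower ones, 13 were not read in any late library. Among these was Tshb, the thyrotropin beta subunit that the pars tuberalis makes under long days. Tshb was read in 0 of 12 late and 7 of 18 mid libraries, with 91 counts in sum, or 14 when only the highest isoform in each library was counted. Since the sum can count a read more than once, the next ratio was taken from the highest isoform. A floor of 3 counts over the pooled late group lay 2.35-fold below the pooled mid level of Tshb. Tshb was picked after its 0 late counts were seen, so this ratio is not a test of a lower level. It covers counting error in the late group only and not the spread between hamsters. Of the summed counts, 37.4% lay in the library of 16 weeks replicate 3. Of the 80 transcripts named by rule and tested with the filter, only Tpm1 passed without it (edgeR adjusted p = 0.0889). Npvf, Bcl11b and Gm15446 were named by rule but not tested with the filter. They passed without it, with edgeR adjusted p of 0.0115, 0.0484 and 0.069. Without the muscle library 124 genes passed, 109 higher and 15 lower, and 123 of these were among the 139.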

How the data were processed

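Per the labels and the study's methods, the authors called bases with guppy, trimmed adapters with Porechop, filtered reads with Filtlong, aligned the hamster reads with Minimap2 to the mouse genome (GRCm39) and estimated transcript levels with Salmon. Hamster reads that differ from the mouse sequence may be lost or placed on other genes. The table deposited for each tissue holds expected counts, which are estimates per isoform that the authors did not normalize. Isoform rows were summed per gene symbol (21821 symbols from 89356 rows) and rounded. In 25.4% of cases where a gene with several rows was read in a library, all its rows were equal, so sums can count a read more than once. 0 columns were left unmapped, and no pair of libraries was identical.

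Gm32262 was left out of totals, genes read in at least 50% of libraries were kept, and TMM factors were applied. Late and mid were compared in edgeR 4.0.16 (R 4.3.3) by the quasi-likelihood F-test, in the older form of that package, with Benjamini-Hochberg FDR below 0.1. SE and intervals were derived from its p. DESeq2 1.42.0 and limma 3.58.1 gave alternatives, and Python 3.11.15 the summaries. CPM values use the TMM-scaled totals. Single values were compared by 2-sided permutation. The tissue comparison kept the hamster as a block. The scripts were tested on simulated data. Within a tissue each library came from a different hamster, so the DMH p-values measure spread between libraries. That spread mixes hamsters with library depth and composition. For late against mid it also holds differences between the weeks of a group. The tissue comparison rests on spread within hamsters.

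Named were the 12 transcripts with the smallest p in each direction, the 2 smallest of each list, 14 fixed transcripts, and the 5 smallest of each further comparison; Tshb, Neb, Ttn and Tnnt3 were named in the unfiltered result after their values were seen. The groups, lists and tests were chosen with earlier results of these data known. Alternatives comprised other scaling, isoform choices, filters, depth limits and left-out weeks or libraries. Those on dominating genes, counts outside them, voom and the muscle library without the filter or within a phase were chosen after seeing the data. Some transcripts that this rule names are not reported here.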

Additional observations from a re-analysis of the deposited data

Results flagged for a closer look

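Within each week the highest or lowest of the 6 DMH libraries was compared with its nearest neighbour by Dixon's ratio on the log2 scale, for depth, marker sums and the transcripts named first. Of 160 groups of 6 libraries, 23 held such a value. Chance alone gives about 1 in 20 groups, and many of these groups hold values at or near 0. No cause was tested.

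The library of 28 weeks replicate 2 stood apart in muscle markers (5788 CPM), Lars2 (8006 CPM), Gm46178 (3631 CPM), Mark3 (741 CPM) and Tmem107 (3.63 CPM). The library of 20 weeks replicate 6 was the high one for Mark3 (4.09 CPM), Btbd3 (3.72 CPM) and Satb1 (16.7 CPM), in a week where most other libraries were shallow. The library of 32 weeks replicate 3 had the lowest total of its week (149289 counts) and 0 CPM of Nudt11 and Cirbp. The library of 16 weeks replicate 4 was at 0 CPM for Magohb, Gm12242 and Cirbp and at 6.76 CPM for Gm6722.

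Single values stood apart for Cmss1 (6.18 CPM at 16 weeks replicate 3), Magohb (0 CPM at 12 weeks replicate 2), Gm48537 (4.39 CPM at 12 weeks replicate 2), Gm6722 (3.87 CPM at 28 weeks replicate 4), Gm12630 and 1700012B09Rik (2.76 and 1.38 CPM at 32 weeks replicate 2, the only library of that week where either was read), Cck (0 CPM at 28 weeks replicate 1) and Sst (0 CPM at 16 weeks replicate 2).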

How the results depend on the processing

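Of 61 settings for late against mid, 59 gave 0 calls; the exceptions were no filter (139 calls) and no filter without the muscle library (124). The smallest adjusted p was 0.114 without the 32-week libraries (Tpm1), 0.20 without the 20-week ones and 0.401 with all 54 libraries in the fit. Leaving out 1 library or replicate number gave 0 to 0 calls, with 48 to 102 genes at an unadjusted p below 0.05. Between 32 and 28 weeks no filter gave 7 calls, and leaving out a replicate number 0 to 1 (1 call without replicate 4). Among the mid weeks no filter gave 1 call and leaving out a replicate 0 to 0. For DMH against MBH no filter gave 2 and leaving out a replicate 0 to 0. Over 80 named transcripts and the settings, 4323 of 4436 estimates kept their sign, and 55 transcripts kept it in every setting run.

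Replicate numbers did not pair the libraries across weeks (mean correlation of deviations 0.09 over 60 pairs with the same number, lowest -0.49, and -0.01 over 300 other pairs). With the replicate block there were 0 calls for late against mid (90 genes at an unadjusted p below 0.05), 0 between 32 and 28 weeks (97) and 0 among mid weeks (169). With no replicate block, that is without the hamster, DMH against MBH gave 0 calls (370).

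In 24 of the 30 libraries there were 20000 or more counts outside the dominating genes, and with these alone 0 genes were called (104 at an unadjusted p below 0.05).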
